A study of Arabidopsis thaliana with 6 samples.

Results

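The PLATZ proteins (plant AT-rich sequence and zinc-binding) are a plant-specific family of small transcription factors. Of 10 *Arabidopsis thaliana* loci assigned to the family, 7 had a probe set naming that gene alone and were measured, among 13355 genes tested: AT1G43000, AT4G17900, AT1G32700, AT5G46710, AT1G76590, AT1G31040 and AT1G21000. AT2G12646, AT2G27930 and AT3G60670 had no single-gene probe set and were not analysed here. The loci were taken by family membership, but the family itself was selected on differences already seen between these same arrays. Its differences and calls are therefore given as a description and support no claim about the family.

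Seedlings treated for 1 h with 20 nM purified protease IV, a serine protease secreted by the bacterium *Pseudomonas aeruginosa* PA14 (3 arrays), were set against mock seedlings (3 arrays). All were whole seedlings 10 days old, grown in liquid Murashige and Skoog medium with sucrose in multi-well plates, and the medium had been renewed before treatment. The control is called nontreated in 1 label and mock in another, and neither says whether buffer was added. A time is recorded for the protease IV arrays only, so a matched time for mock is not known here. The labels call the arrays of each group biological replicates. The sources used here give no ecotype or genotype and do not say how wells were divided among the arrays, so the spread between arrays may be partly technical. Values are log2 expression on Affymetrix ATH1 arrays, each of which reads a transcript through a set of short probes.

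PLATZ proteins carry conserved zinc-coordinating motifs, and the founding member, from pea, bound A/T-rich DNA and repressed transcription. In *Arabidopsis*, members have been linked to leaf growth and senescence, to the peptide signal that sets the size of the root meristem, and to salt and drought responses. In maize endosperm a PLATZ protein binds components of RNA polymerase III. RefSeq gives the 7 measured loci no symbol beyond the locus name, so each is called by its locus. The links above are not assigned to single loci here, and they need not concern the measured ones.

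After protease IV, 4 measured PLATZ transcripts were higher, by very different amounts, and 1 was slightly lower. AT1G43000 was 19.7-fold higher, AT4G17900 2.97-fold, AT1G32700 1.54-fold and AT5G46710 1.49-fold, and AT1G21000 was 1.26-fold lower. AT1G76590 and AT1G31040 did not pass the threshold, which was an adjusted p under 0.05 in limma over all genes. Rises passed in 11.4% of all genes tested and falls in 22.8%. The share depended on scaling: with cyclic loess between the arrays 15.4% of genes were higher and 11.3% lower. Among the 7644 genes with a mean over arrays of at least 5, 17.8% were higher and 40.9% lower. The median difference was 0.57 on the log2 scale over the 7 members and -0.06 over all genes. Of the 7 members, 2 rose at least 2-fold, against 4.51% of all genes.

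AT1G43000 read 7.80, 7.60 and 7.78 on the protease IV arrays and 3.64, 3.16 and 3.50 on the mock arrays. Every treated array stood at least 3.96 log2 units above every mock array. The group means were 7.73 ± 0.11 in protease IV and 3.43 ± 0.24 in mock (SD, n = 3 each), a difference of 4.30 (SE 0.12; 95% interval 4.03 to 4.56), or 19.7-fold. The mock mean was under each array's lower quartile (3.97 to 4.05). RMA compresses signals this dim, so the fold is that of the values as measured. Of the 13355 genes, 52 had a larger measured difference, and with the mock group this dim that place is approximate.

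AT4G17900 read 9.59, 9.57 and 9.43 in protease IV-treated seedlings and 8.02, 7.92 and 7.95 in mock. The groups were 1.41 apart at their closest, and both lay well above the dim part of the arrays. The means, 9.53 ± 0.090 in protease IV and 7.96 ± 0.052 in mock (SD, n = 3 each), differed by 1.57 (SE 0.077; 95% interval 1.40 to 1.74), or 2.97-fold. Among all genes, 2.80% had a larger difference.

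**Figure D1:**
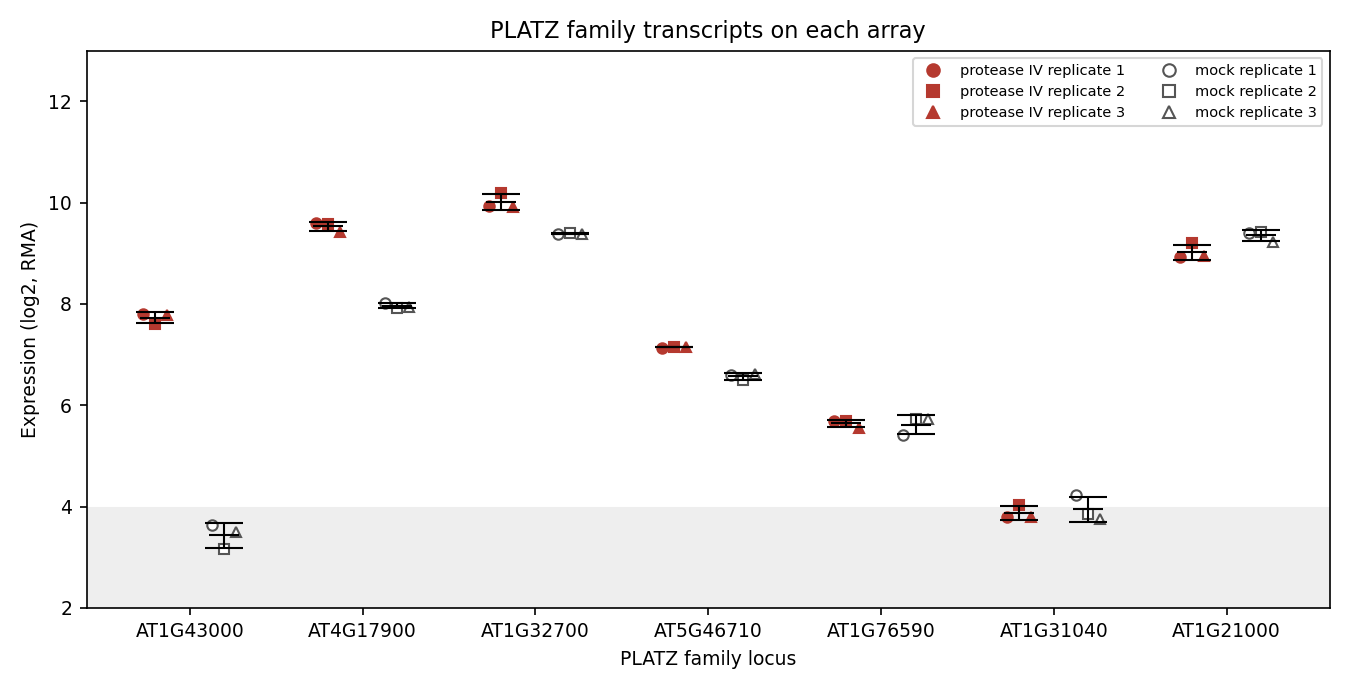
Log2 expression (vertical axis) of the 7 measured PLATZ loci (horizontal axis, ordered by difference) on each protease IV array (filled red) and mock array (open grey), with marker shape for the replicate number and bars for the group mean ± SD; the grey band lies below 3.97, the lowest lower quartile of an array. The AT1G43000 points run between 7.60 and 7.80 in protease IV and lie inside the band in mock, whereas the AT1G76590 and AT1G31040 groups overlap.

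AT1G32700 read 9.93, 10.19 and 9.92 in protease IV and 9.38, 9.39 and 9.39 in mock. The mock arrays spanned 0.012 and the treated arrays 0.27, and the groups were 0.52 apart. The means were 10.01 ± 0.15 in protease IV and 9.39 ± 0.0059 in mock (SD, n = 3 each), a difference of 0.62 (SE 0.088; 95% interval 0.43 to 0.82) or 1.54-fold.

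AT5G46710 showed the opposite order of spread. Its protease IV arrays read 7.14, 7.15 and 7.15, within 0.0087 of each other, and its mock arrays 6.60, 6.50 and 6.63. The groups were 0.51 apart. Their means were 7.15 ± 0.0049 in protease IV and 6.58 ± 0.068 in mock (SD, n = 3 each), so the difference was 0.57 (SE 0.072; 95% interval 0.41 to 0.73) or 1.49-fold. The intervals of AT1G32700 and AT5G46710 cover each other's estimate.

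AT1G21000 was the only measured member that fell. It read 8.92, 9.19 and 8.95 in protease IV and 9.41, 9.42 and 9.23 in mock. The highest treated array and the lowest mock array were 0.037 apart. The means were 9.02 ± 0.15 in protease IV and 9.35 ± 0.11 in mock (SD, n = 3 each), a difference of -0.33 (SE 0.095; 95% interval -0.54 to -0.12). The call was lost without protease IV replicate 1 (-0.28) or 3 (-0.30), without mock replicate 1 (-0.31) or 2 (-0.30), and with cyclic loess, where the difference was -0.15. Of all genes, 84.1% had a more positive difference.

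AT1G76590 read 5.69, 5.68 and 5.56 in protease IV and 5.41, 5.73 and 5.72 in mock, and its groups overlapped. The difference was 0.023 (SE 0.098; 95% interval -0.20 to 0.24). AT1G31040 read 3.79, 4.02 and 3.80 in protease IV and 4.23, 3.85 and 3.75 in mock. Both of its group means, 3.87 ± 0.13 in protease IV and 3.94 ± 0.25 in mock (SD, n = 3 each), were under the arrays' lower quartile. Its difference was -0.070 (SE 0.12; 95% interval -0.35 to 0.20), and a change anywhere inside that interval is compatible with the values. In all, the groups did not overlap in 5 of the 7 members, against 45.6% of all genes.

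**Figure D2:**
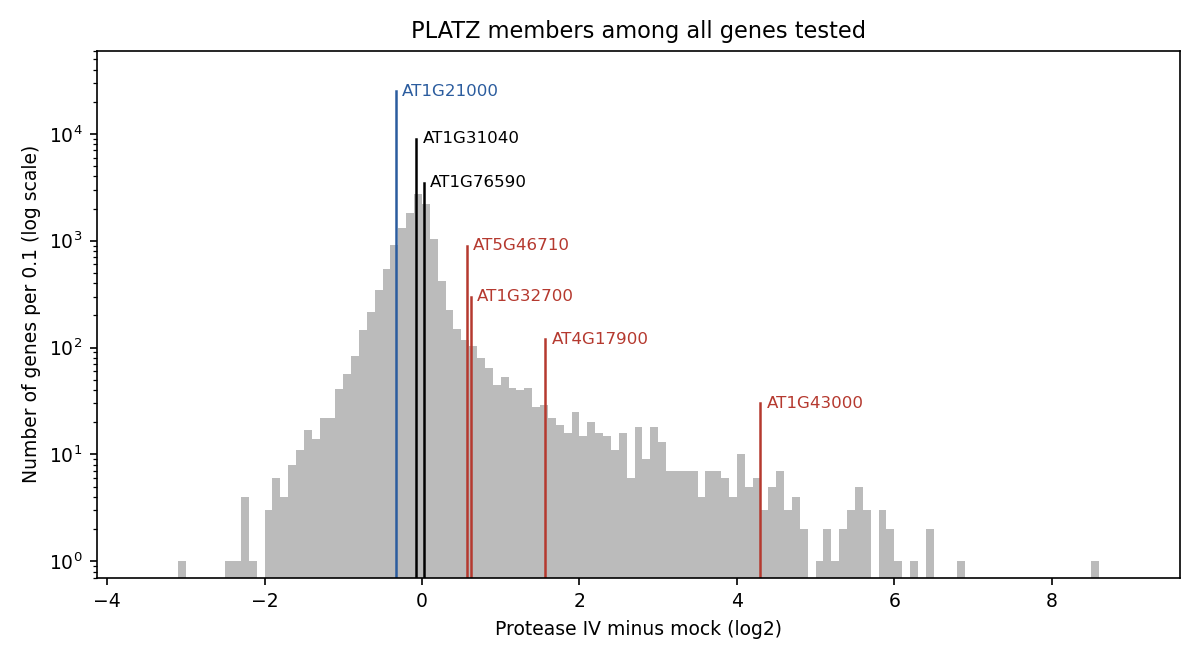
Number of genes (vertical log axis, bins of 0.1) by the difference protease IV minus mock on the log2 scale (horizontal axis) for all 13355 genes in grey, with the PLATZ loci as lines in red (higher), blue (lower) or black (not past the threshold); line heights only separate the labels. AT1G43000 at 4.30 and AT4G17900 at 1.57 lie in the right tail, and the 99th percentile of all genes is 3.04.

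The arrays within a group did not deviate alike in all members. Among the 602 genes at least 2-fold higher, protease IV replicate 2 was the lowest treated array in 73.9%, with a median deviation from the group mean of -0.13 (0.07 for replicate 1 and 0.06 for replicate 3). AT1G43000 had the same order, with replicate 2 at -0.13. AT1G32700 did not: replicate 2 was its highest array, at 0.18 above the group mean, as it was in 22.3% of all genes that rose. In AT1G21000, replicate 2 was 0.17 above the mean and so nearest to mock. Replicate 2 was the highest treated array in 51.9% of the 3039 genes that fell. Leaving that array out moved the difference of AT1G43000 to 4.36, of AT1G32700 to 0.54 and of AT1G21000 to -0.42.

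Profiles most like that of AT1G43000 were found by the Euclidean distance between log2 values on the 6 arrays, each gene relative to its mock mean. AT1G58420 was nearest (distance 0.26). It read 8.38, 7.96 and 8.47 in protease IV and 4.27, 3.73 and 4.12 in mock. AT1G51920 (distance 0.29) and AT2G27660 (distance 0.32) differed by 4.19 and 4.20. AT1G58420 and AT1G51920 had replicate 2 lowest in both groups, as AT1G43000 did, and AT2G27660 in protease IV only. The genes were chosen by distance over these same arrays, so a like order of arrays is no separate result. For AT1G21000 the nearest were AT4G01280 (distance 0.056), SCL21, a GRAS-family regulator (0.085), and AT5G53220 (0.086), with differences of -0.33, -0.32 and -0.32. Distances among genes of small difference are small by construction, so the values for the 2 members are not comparable.

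Of the nearest measured genes on each side of the 7 loci, 3 rose, 1 fell and 10 did not pass. Over all genes tested, rises passed in 11.4%, rises of at least 2-fold in 4.51%, and falls in 22.8%. The 3 rising neighbours lay beside loci on chromosome 1, where 5 of the 7 measured loci lie. BZIP60, a transcription factor of the unfolded protein response, is adjacent to AT1G43000. It averaged 10.89 ± 0.053 in protease IV and 8.47 ± 0.076 in mock (SD, n = 3 each), and rose by 2.42 (limma, adjusted p = 2.05e-09). On the other side of AT1G43000, AT1G43010 differed by -0.03 (limma, adjusted p = 0.848), with both means under the arrays' lower quartile.

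The other rising neighbours flanked members that did not rise. AT1G76600, adjacent to AT1G76590, averaged 10.64 ± 0.11 in protease IV and 6.60 ± 0.065 in mock (SD, n = 3 each), a rise of 4.04 (limma, adjusted p = 1.43e-10) beside a difference of 0.023 for AT1G76590. AT1G21010, with 1 gene between it and AT1G21000, averaged 9.13 ± 0.18 in protease IV and 6.22 ± 0.051 in mock (SD, n = 3 each). It rose by 2.91 (limma, adjusted p = 3.43e-09), whereas AT1G21000 fell. AT1G32730, with 4 genes between it and AT1G32700, fell by 0.62 (limma, adjusted p = 0.0237). That call was lost without protease IV replicate 1 (-0.44) or 3 (-0.60) or mock replicate 2 (-0.46).

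The other 10 neighbours, AT1G43010 included, did not pass. Those of AT4G17900 were UBP20, a ubiquitin-specific protease, at 0.28 (limma, adjusted p = 0.192), and ATL4H, of the ATL RING ubiquitin ligases, at 0.05 (limma, adjusted p = 0.678). AT5G46710 lay between AT5G46680 at -0.08 and AT5G46730 at -0.17, and AT1G31040 between AT1G31030 at 0.01 and AT1G31050 at -0.05. AT1G32690, adjacent to AT1G32700, differed by 0.15 (limma, adjusted p = 0.212) and rose with cyclic loess, by 0.31 (limma, adjusted p = 0.0116). AT1G76580 and AT1G20970 differed by -0.02 and -0.10.

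**Figure D3:**
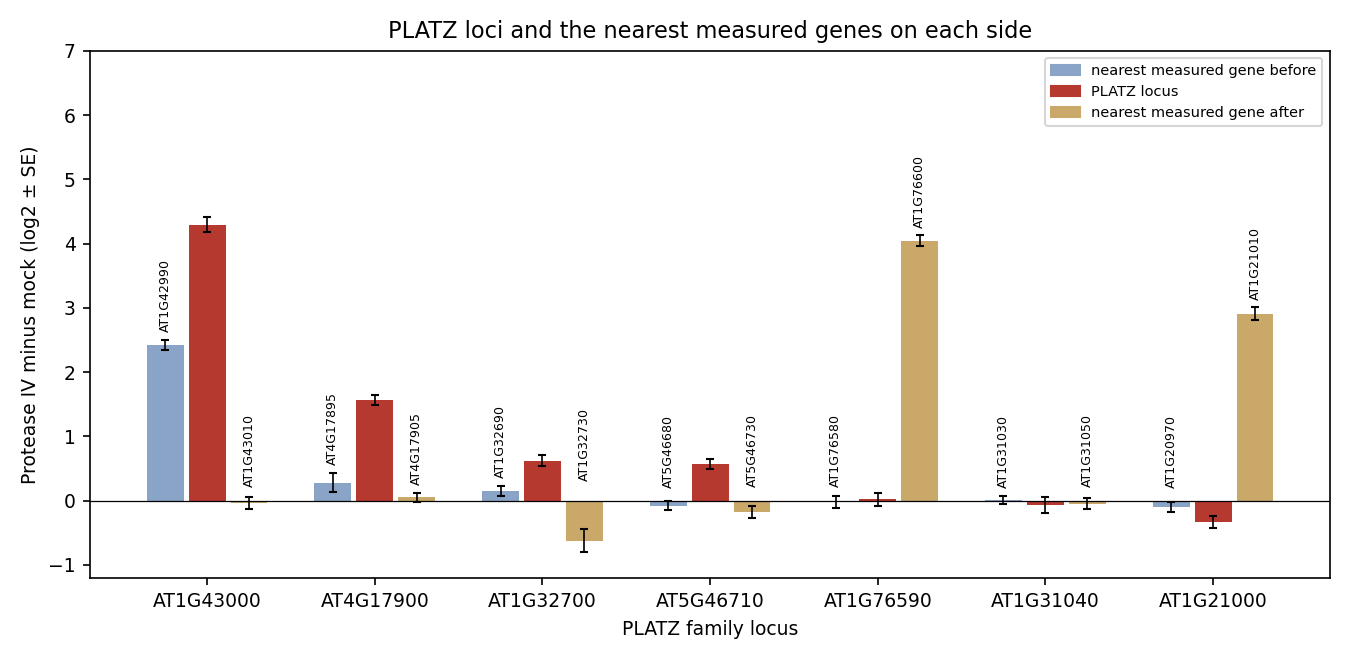
Difference protease IV minus mock (log2 ± SE, vertical axis) of each measured PLATZ locus (red) and of the nearest measured gene before it (blue) and after it (ochre) in RefSeq order, grouped by PLATZ locus (horizontal axis). The tall ochre bars at AT1G76590 (4.04) and AT1G21000 (2.91) stand beside PLATZ bars at 0.023 and -0.33.

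Genes of the processes linked to the family were read from lists, which were chosen with earlier results of these data known. The list counts are therefore a description and support no claim about these processes. Of 15 leaf senescence regulators and markers 5 were measured, of which 3 rose and 1 fell, against 11.4% and 22.8% of all genes, with a median difference of 2.33. WRKY6 and WRKY53, transcription factors of senescence and defence, rose by 4.56 (limma, adjusted p = 6.54e-09) and 3.78 (limma, adjusted p = 8.22e-10). SAG101, a lipase-like partner of EDS1, rose by 2.33 (limma, adjusted p = 4.20e-09). SAG29, a sugar transporter of the SWEET family, fell by 0.38 (limma, adjusted p = 0.0324) with groups that overlapped. It did not pass with cyclic loess (-0.26), nor without protease IV replicate 2 (-0.35) or 3 (-0.28) or mock replicate 1 (-0.32) or 3 (-0.35). EIN3, a transcription factor of ethylene signalling, differed by 0.17 (limma, adjusted p = 0.0889). It passed with cyclic loess (0.35), and at the same 0.17 with a variance trend or among the genes with a mean of at least 5.

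Of 14 genes in the list for the root meristem peptide pathway 6 were measured, with a median difference of 0.04. Of these 1 fell and 0 rose, against 22.8% and 11.4% of all genes. AT1G34110 read 5.69, 5.78 and 6.04 in protease IV and 6.46, 6.22 and 6.33 in mock, and fell by 0.50 (SE 0.10; limma, adjusted p = 0.00369). The others did not pass. UPB1, a bHLH regulator of the balance of reactive oxygen in the root, differed by 0.06, and BBM, an AP2-domain factor, by 0.12. With cyclic loess UPB1 (0.24) and AT5G48940 (0.26) rose. Of 23 B-box zinc finger factors 1 was measured, AT2G47890, which differed by 0.07 and rose with cyclic loess (0.23). No gene of the lists for salt tolerance (6 genes) or for GRF and GIF leaf growth regulators (12 genes) had a probe set named for it alone, and these lists were not analysed here.

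A root and a leaf marker were both high, as in whole seedlings. PYK10, a root beta-glucosidase, averaged 12.46 ± 0.011 in protease IV and 12.63 ± 0.050 in mock (SD, n = 3 each). HPR, a leaf peroxisomal reductase, averaged 12.24 ± 0.19 in protease IV and 12.63 ± 0.046 in mock (SD, n = 3 each). The other measured root markers, EXPA7, EXPA18 and AT5G66390, averaged 5.49, 5.27 and 5.90 in protease IV and 5.39, 5.61 and 5.78 in mock. These lay under the array medians of 6.07 to 6.13. Both group means of all 4 pollen markers were under the arrays' lower quartile, with AtVEX1 differing most (-0.22; limma, adjusted p = 0.131). HPR, the only measured leaf marker of 6, fell by 0.39 (limma, adjusted p = 0.0110), and of 4 measured root markers EXPA18 fell by 0.34 (limma, adjusted p = 0.0253) and the rest did not pass. PYK10, at -0.17, passed with a variance trend or among the genes with a mean of at least 5. Of 4 stomatal lineage markers the 3 measured ones were lower, against falls in 22.8% of all genes. The differences were -0.61 for FMA, -0.51 for SPCH and -0.31 for MUTE (limma, adjusted p = 0.00098, 0.0013 and 0.0344). Among genes with a mean over arrays of at least 5, such as FMA and SPCH, 40.9% fell. With cyclic loess FMA (-0.44) and SPCH (-0.35) still passed, against falls in 11.3% of all genes. The summed level of the 3 measured stomatal lineage markers was 7.12 to 7.39 in protease IV and 7.72 to 7.84 in mock (log2 of the sum). MUTE was near background, with means of 3.83 in protease IV and 4.14 in mock beside lower quartiles of 3.97 to 4.05. HPR, EXPA18 and MUTE did not pass with cyclic loess, where the root marker AT5G66390 rose (0.26). MUTE passed without mock replicate 3 but not without any other single array (-0.34 to -0.20). EXPA18 did not pass without replicate 1 or 3 of either group (-0.36 to -0.28). In whole seedlings, fewer cells of a type and less RNA per cell cannot be told apart, and the part of these shifts in the PLATZ differences was not tested. The seed markers were not analysed here.

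Differences of the 4 rising PLATZ members kept their sign and their call in all 15 alternatives. AT1G43000 ranged from 4.16 to 4.43, AT4G17900 from 1.49 to 1.75, AT1G32700 from 0.54 to 0.80 and AT5G46710 from 0.49 to 0.75. The highest value of each came with cyclic loess. Array medians lay between 6.07 and 6.13, and no arrays held identical values. The 3-prime minus 5-prime difference of one actin control, a measure of RNA integrity, was 1.73, 1.58 and 2.12 in protease IV and 1.58, 1.58 and 1.57 in mock. A second actin control read 2.85, 3.14 and 3.63 in protease IV and 3.37, 3.35 and 3.03 in mock. A GAPDH control read 0.05, 0.04 and 0.17 in protease IV and 0.02, -0.04 and 0.06 in mock. The part of RNA integrity in the PLATZ differences was not tested. Without protease IV replicate 3 AT1G43000 differed by 4.27, AT4G17900 by 1.62, AT1G32700 by 0.67 and AT5G46710 by 0.57. In that setting AT1G21000 (-0.30) did not pass.

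**Figure D4:**
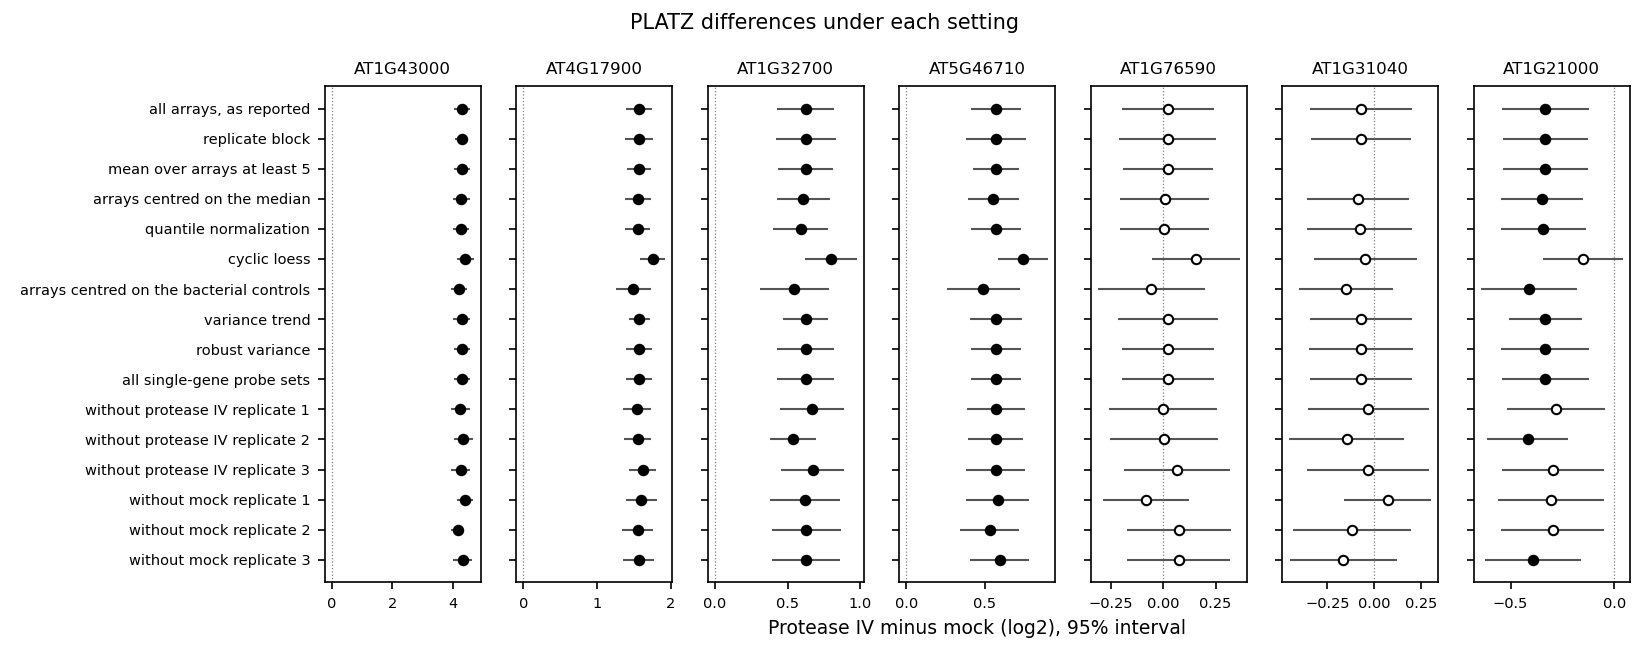
Difference protease IV minus mock (log2, horizontal axes with separate ranges, with 95% intervals) of each PLATZ locus under the reported fit and each alternative (rows); filled points passed the threshold and open points did not, and AT1G31040 has none where the mean over arrays had to reach 5. The 4 rising loci are filled in every row, whereas AT1G21000 is open in 5.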

How the data were processed

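The submitters' processing notes name affy 1.36.1 and robust multi-array averaging (RMA) for the log2 values that the authors deposited, and the sources used here give no settings. RMA quantile-normalizes the arrays, so a change in total mRNA cannot be read from them. GEO's platform annotation named 1 gene for 13513 of 22810 probe sets, and RefSeq (TAIR10.1) matched 13436 of these. For genes with several sets, the one with the highest mean was used. Differences were fitted over all 13355 genes with limma 3.58.1 in R 4.3.3 as protease IV minus mock, without covariates, and p-values were two-sided and Benjamini-Hochberg adjusted. The fit was tested on simulated data in which the changed genes differed at least 2-fold. That test did not cover smaller differences, such as that of AT1G21000. With 3 arrays a group, precision is limited by their number.

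The members and lists were chosen with earlier results of these data known. Genes named were all measured members, up to 3 called genes of each list with the largest difference (or the largest difference where none passed), the 3 profiles nearest to the largest rise and largest fall, and the nearest measured gene on each side. Other list members were named after their values were seen. Lists were described without a set test. Promoter motifs were planned but not analysed here, since the reference tables used held no sequence. Alternatives covered each array left out, the replicate number as a block, a filter on dim genes, other scalings, other variance models and all probe sets.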

Additional observations from a re-analysis of the deposited data

How the results depend on the processing

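Across all genes, 1525 were higher and 3039 lower. With cyclic loess 1514 were lower (42.4% of calls, against 66.6%), and with 1 array left out 1342 to 1491 were higher and 2316 to 3214 lower. The PLATZ count of 4 higher members was the same in all 15 alternatives. The count of 1 lower member, AT1G21000, was 0 with cyclic loess and 0 to 1 with 1 array left out; that alternative left fewer samples, and the cause under cyclic loess was not tested. Members that did not pass changed sign: AT1G76590 was -0.056 after centring arrays on the bacterial controls and -0.082 to 0.077 with 1 array left out (-0.00035 without protease IV replicate 1), and AT1G31040 was -0.17 to 0.073 with 1 array left out. For the 7 lists with a measured member, 194 of 210 counts under alternatives were within 1.5 times the reported count, many of them counts of 0 or 1. The replicate block gave 1441 higher and 2738 lower genes, with 4 and 1 members. Deviations of same-numbered arrays correlated at 0.04, -0.1 and -0.18 across genes. No pairing by replicate number was seen in the values, which cannot show whether same-numbered samples were grown or processed together. Protease IV replicate 3 correlated best with mock replicate 2 (0.16). Values near background, as for AT1G31040 and AT1G43000 in mock, limit what can be read.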
